A study of Mus musculus with 18 samples.

Results

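Motor neurons of the lumbar spinal cord of non-transgenic mice were compared between 90 and 120 days of age, on 3 arrays at each age. These 6 arrays belong to a set of 18, with 3 mice in each of 6 groups. They were chosen by their sample titles, which name them Control 90 days and Control 120 days. The controls were littermates of mice that carry the SOD1 G93A transgene, a mutant human superoxide dismutase that causes a motor neuron disease, and carried no transgene themselves. Controls of 60 days and G93A mice of 60, 90 and 120 days make up the other 12 arrays. From each mouse a laser cut out 1000 motor neurons, recognised in 10 µm frozen sections by toluidine blue, and the biotin-labelled RNA was hybridised to a single-colour Affymetrix array. The sources used here do not give the strain or sex of the mice, or the promoter of the transgene. The replicates are separate animals, as far as the labels number them, and nothing in the labels says which arrays were processed together, so a processing batch and age cannot be told apart.

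Spinal motor neurons send their axons out of the cord to skeletal muscle and release acetylcholine there. They are large cells that depend on neurofilaments, on motor proteins that carry cargo along microtubules, and on a high supply of energy and newly made protein. Glial processes, myelin and the endings of interneurons lie against the cell body, so a laser cut around it can take up RNA of those cells. Fewer cells of a type and less RNA per cell cannot be told apart in such samples.

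The labelled cell type was checked against defining markers on the 6 arrays. Of 7 motor neuron markers with a probe set, 2 lay above their array's median on all 6 arrays: Isl2, a motor neuron transcription factor, and Prph, the intermediate filament peripherin. The Slc18a3 probe set, for the vesicular acetylcholine transporter, lay above the median on 0 of the 6 arrays. The Slc5a7 probe set, for the choline transporter, did so on 1 of the 6. Markers of other cells were present as well. On all 6 arrays, 2 of 6 astrocyte, 3 of 5 oligodendrocyte, 3 of 6 microglial, 1 of 4 interneuron and 0 of 5 endothelial markers lay above the array's median. Here Gja1, Mbp, Cnp and C1qb were read from _x_at probe sets, whose probes can match other transcripts, and no motor neuron marker was. On the probe sets used for the lists below, Gja1 (39.6) and Cnp (19.9) lay under the median signal of 90 days sample 3, 55.4. C1qb (7.8) lay under that of 90 days sample 1, 57.85.

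Technical measures also differed with age. The mean log2 signal of 18 hybridization-control probe sets was 9.83 ± 1.27 (SD, n = 3) at 90 days and 11.6 ± 0.564 (SD, n = 3) at 120 days. Gapdh has probe sets at its 3′ and 5′ ends, whose ratio is higher where RNA is shorter. As a log2 value this ratio was 3.25 ± 0.861 at 90 days and 4.48 ± 0.255 at 120 days. Neither of these 2 measures overlapped between the ages, and each reached the smallest p that 3 against 3 arrays allow (two-sided exact permutation test, p = 0.1). The same log2 ratio for actin did overlap, with 4.75, 5.50 and 4.95 at 90 days and 4.82, 4.62 and 8.4 at 120 days (exact permutation p = 0.9), so the 2 ratios did not move alike. The share of signals under 16 was 25.7% ± 0.208 at 90 days and 27.8% ± 1.26 at 120 days (exact permutation p = 0.1). The Xist signal, from the inactive X chromosome, lay between 320.3 and 564.1 on the 6 arrays. Signals of the Y-linked genes Kdm5d and Uty lay between 10.7 and 91 and between 8.8 and 90.1. Correlations of log2 signals between arrays of the same age ran from 0.678 to 0.767, and between arrays of different age from 0.65 to 0.807, so both ranges overlapped.

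Between 90 and 120 days, 90 of 10051 tested genes changed (0.895%), 53 of them higher (0.527%) and 37 lower (0.368%) at 120 days. A change means a Benjamini-Hochberg adjusted p under 0.05 in limma, adjusted over all 16565 probe sets tested. Sizes are differences of mean log2 signal, where 1 is a doubling of the deposited signal. They ran from 1.15 to 4.24 for the genes that rose and from 1.25 to 3.64 for those that fell. Over probe sets, 173 changed (1.04%), 110 higher (0.664%) and 63 lower (0.38%). At an unadjusted p under 0.05, 573 genes were higher (5.7%) and 706 lower (7.02%). The 3 arrays of each age did not overlap in any of the 90 genes. Over all tested genes they did not overlap in 625 genes higher (6.22%) and 1027 genes lower (10.2%) at 120 days. The median difference over all genes was −0.13, and 42.9% of genes lay above 0.

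**Figure D1:**
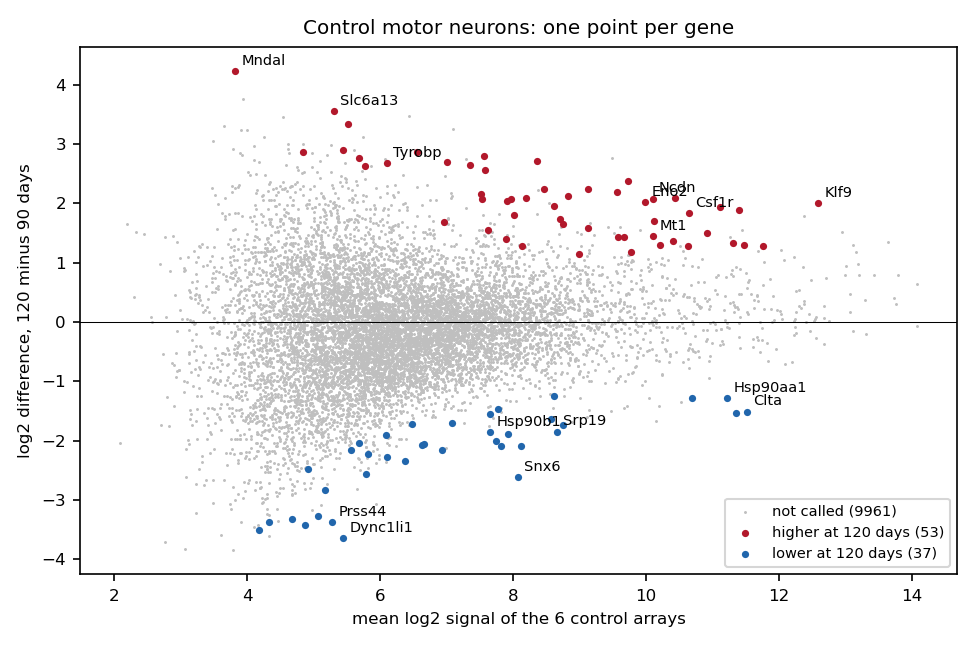
Each point is a gene, placed by its mean log2 signal over the 6 control arrays (horizontal) and by its log2 difference, 120 minus 90 days (vertical). The 53 genes that rose (red) and the 37 that fell (blue) lie at the outer edge of the cloud of 10051 genes. Median log2 signals at 90 and 120 days were 7.76 and 9.58 for the genes that rose and 7.68 and 5.63 for those that fell.

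These counts rest on the whole set of arrays for their estimate of spread. With only the 6 control arrays of the 2 ages, limma called 0 probe sets, with a lowest adjusted p of 0.0524 and with 832 higher and 1031 lower at an unadjusted p under 0.05. It also called 0 without a trend of variance on level (lowest adjusted p 0.0551, 876 higher and 1263 lower unadjusted). With the 9 control arrays alone it called 47. Single arrays mattered too: the count was 62 without 90 days sample 1, 211 without sample 2 and 29 without sample 3. Without 120 days sample 1 it was 299, without sample 2 it was 111 and without sample 3 it was 73. With each array centred on its median, 235 probe sets were higher and 29 lower, against 110 and 63 as deposited, because the median over all probe sets moved from −0.15 to 0.11. With the Gapdh ratio as a covariate, 26 were called, 22 higher and 4 lower, and with the hybridization-control level 228, 175 higher and 53 lower. The part of these measures in the calls was not tested beyond these fits.

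**Figure D2:**
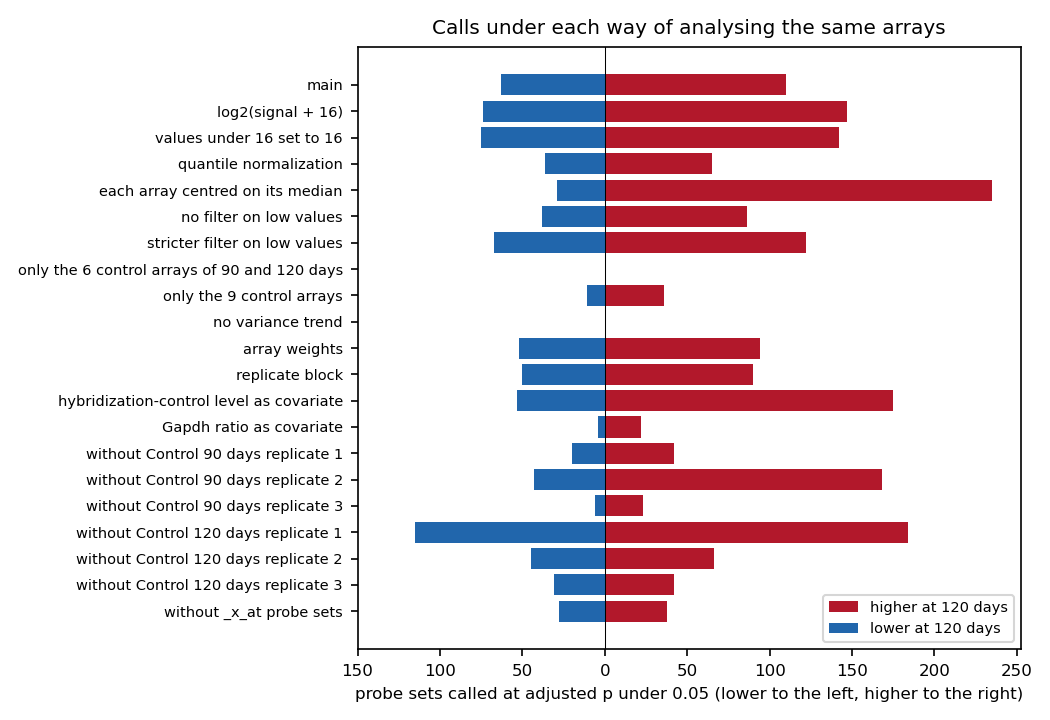
Bars give the number of probe sets called lower (blue, to the left) and higher (red, to the right) at 120 days under each way of analysing the arrays. The counts run from 0, with only the 6 arrays or without a variance trend, to 299 without 120 days sample 1.

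The genes whose calls held best were examined first, and they were chosen after their values were seen. Leaving out each of the 6 arrays in turn, 11 of the 90 genes were called in all 6 fits. Higher at 120 days were Capn15, Fscn1, Rnf157, Camkk2, Ncdn, Mxd4 and Bpgm. Lower were Srp19, Snx6, Zfand5 and Prss44. With the Gapdh ratio as a covariate, 10 of the 90 genes were still called, among them Capn15, Fscn1, Rnf157, Mxd4 and Srp19.

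Among these genes, Ncdn encodes neurochondrin, a neuronal protein of neurite outgrowth and dendrites. Its signals were 500.6, 774.2 and 390 at 90 days and 3753, 1704 and 1785 at 120 days. Every 120-day array exceeded every 90-day array, and Ncdn rose by 2.08 ± 0.346 (log2, SE, n = 3 per age, adjusted p = 0.00501). Camkk2, the kinase that activates CaM kinases and AMPK when calcium rises, gave 228.5, 350.2 and 206.9 at 90 days and 1642, 927.6 and 1165 at 120 days. Its groups lay far apart, and Camkk2 rose by 2.25 ± 0.375 (adjusted p = 0.00501), while its other probe sets gave 0.87 and −0.52 without a call. Fscn1, fascin, bundles actin in growth cones and filopodia. Its signals went from 1325, 1205 and 894.5 to 3497, 3972 and 5724, a rise of 1.93 ± 0.332 (adjusted p = 0.00553). Its other 2 probe sets differed by 0.88 and −0.30 and were not called. Rnf157, a ubiquitin ligase abundant in brain, gave the tightest group of these at 90 days, with 1392, 1425 and 1369. At 120 days it gave 6609, 6210 and 3359, a rise of 1.89 ± 0.334 (adjusted p = 0.006). Capn15, a calpain-type protease, had the lowest adjusted p among the genes that rose: signals of 459.9, 376.7 and 254.1 became 1052, 1726 and 2334 (2.20 ± 0.351, adjusted p = 0.00463). Its 3 other probe sets also lay above 0.

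Mxd4 encodes a repressor that pairs with MAX in place of MYC and is high in differentiated cells. Signals of 153.5, 41.9 and 56.4 at 90 days compared with 347.6, 531.9 and 657.1 at 120 days, a rise of 2.80 ± 0.488 (adjusted p = 0.00553). Sample 1 of 90 days stood above its group but below all 120-day arrays. Bpgm, bisphosphoglycerate mutase, branches off glycolysis and is best known in red cells. It gave 69.5, 137.2 and 76.3 at 90 days and 490, 354.8 and 311.8 at 120 days (2.07 ± 0.362, adjusted p = 0.00553). The globin and red cell list held 3 other tested genes, all below 0, and the second Bpgm probe set gave −2.38 without a call, so the probe sets of this gene disagree.

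Srp19 had the lowest adjusted p of all genes. It encodes a subunit of the signal recognition particle, which brings nascent secretory and membrane proteins to the endoplasmic reticulum. Its signals were 791, 738.3 and 774.7 at 90 days and 208.3, 264.9 and 175.2 at 120 days, 2 tight groups without overlap. Srp19 fell by 1.85 ± 0.28 (log2, adjusted p = 0.00406), so the 90-day signal was 3.6 times that of 120 days, and the 60-day controls lay between, at 631, 338.2 and 483.6. Snx6, a sorting nexin of the retromer pathway that returns receptors from endosomes, gave 380, 832.7 and 944.5 and then 63.1, 199.1 and 101.8 (−2.62 ± 0.437, adjusted p = 0.00501). Its other probe sets gave −0.73 and 1.14, neither called. Zfand5, a zinc finger protein that binds ubiquitin and the proteasome, went from 977.8, 743.9 and 671.6 to 177.9, 277.1 and 262.6 (−1.75 ± 0.296, adjusted p = 0.00553), and its 2 other probe sets also lay below 0. Prss44, a serine protease known from testis, fell by 3.38 ± 0.582 (adjusted p = 0.00553), with signals of 140.2, 87.8 and 160.7 at 90 days. At 120 days its signals were 10.8, 15.7 and 10.3, all under 16.

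**Figure D3:**
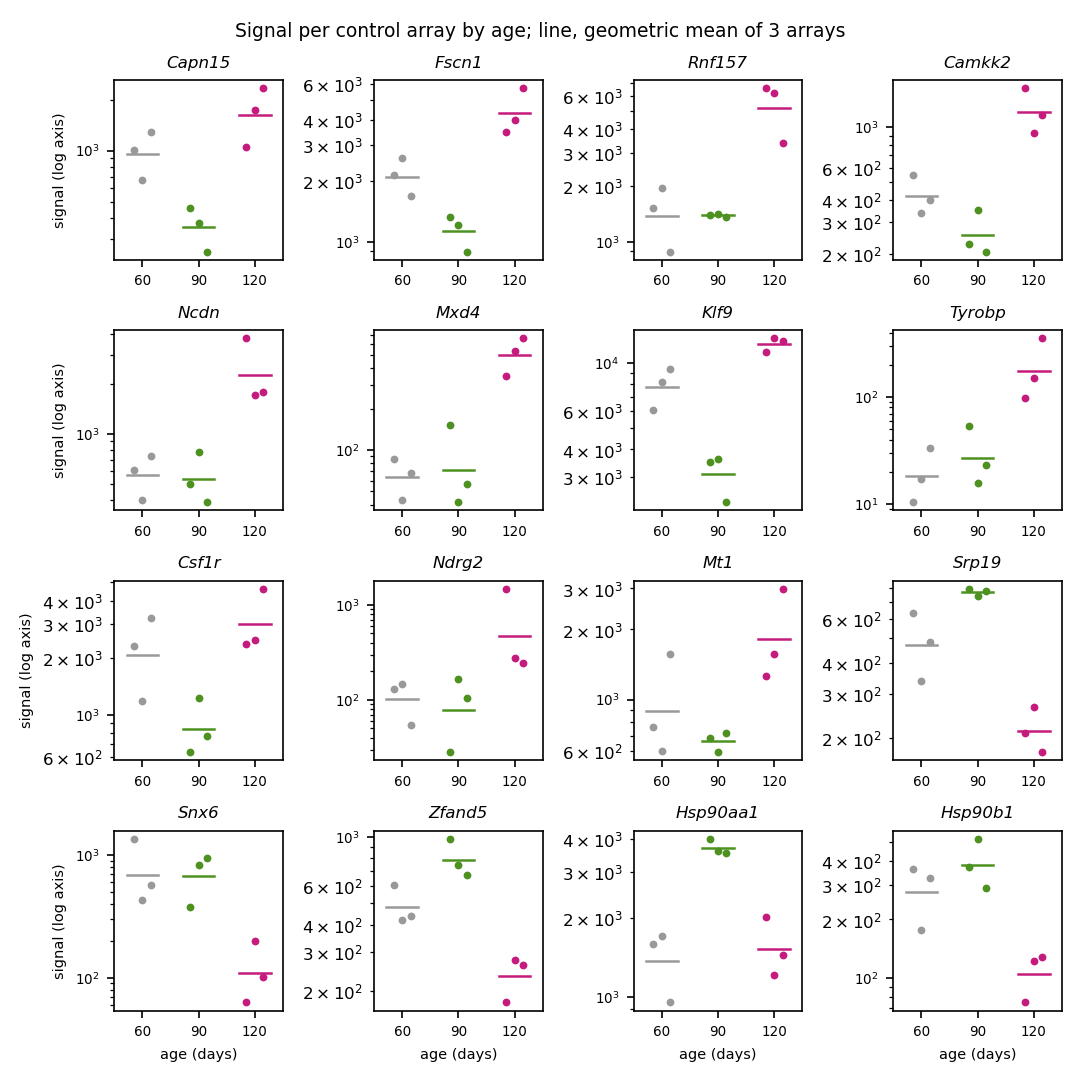
Signal per control array (log axis) at 60 (grey), 90 (green) and 120 (magenta) days for 16 genes, with a line at the geometric mean of 3 arrays. In each panel the 90-day and 120-day arrays do not overlap; in Klf9, Csf1r and Hsp90aa1 the 60-day mean lies nearer to that of 120 days than to that of 90 days.

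HSP90 chaperones complete the folding of kinases and receptors, in the cytosol as Hsp90aa1 and in the endoplasmic reticulum as Hsp90b1. Hsp90aa1 signals were 4008, 3621 and 3537 at 90 days and 2027, 1212 and 1449 at 120 days, so the groups were well apart. Hsp90aa1 fell by 1.28 ± 0.315 (adjusted p = 0.0457), and all 3 of its probe sets lay below 0. Its call was lost on leaving out any array other than 120 days sample 1. Hsp90b1 gave 373.7, 517.9 and 290.3 at 90 days and 75, 122.4 and 128.2 at 120 days, a fall of 1.86 ± 0.371 (adjusted p = 0.0132) that lost its call only without 90 days sample 1 among the leave-one-out fits. Of the list of 34 tested HSP70, HSP90 and small heat shock proteins and their partners, these 2 fell (5.88%, against 0.368% of all genes) and 0 rose. The median of the list was 0.03. Among uncalled members, the small heat shock protein Cryab differed by 1.05 (adjusted p = 0.15) and the inducible Hspa1b by −1.06 (adjusted p = 0.29).

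Hsp90b1 is a classical target of the unfolded protein response, whose factors bind the ER stress element, so its promoter is shown beside that of Hspa5, the ER chaperone BiP. Both sequences are the 250 bases before the RefSeq start on GRCm38.p6, at chr10:86705445-86705694 (minus strand) and chr2:34771840-34772089 (plus strand), read 5′ to 3′, and capitals mark matches to that element on either strand: CCAAT and CCACG, separated by 9 bases of any kind.
Hsp90b1: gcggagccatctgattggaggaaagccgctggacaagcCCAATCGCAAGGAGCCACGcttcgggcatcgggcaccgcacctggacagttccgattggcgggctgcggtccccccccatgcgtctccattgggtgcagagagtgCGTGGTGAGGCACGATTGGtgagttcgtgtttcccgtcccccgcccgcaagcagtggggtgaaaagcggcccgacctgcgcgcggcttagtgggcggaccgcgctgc
Hspa5: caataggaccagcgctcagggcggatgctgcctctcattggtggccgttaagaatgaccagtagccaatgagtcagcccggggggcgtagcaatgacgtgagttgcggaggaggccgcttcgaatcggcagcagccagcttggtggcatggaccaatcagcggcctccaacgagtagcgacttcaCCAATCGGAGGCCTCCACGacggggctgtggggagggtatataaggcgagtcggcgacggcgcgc
The Hsp90b1 window held 2 matches and the Hspa5 window 1. Among 32851 windows of 250 bases, 37 held a match (0.113%), and they belong to 35 genes, of which 15 were tested. Of these 15, 0 rose (against 0.527% of all genes) and 1, Hsp90b1 itself, fell (against 0.368%). Hsp90b1 was chosen for display as a gene that fell, so its count was fixed in advance. Of the 15, 11 lay above 0, with a median of 0.27 and a range from −1.86 to 1.66. Hspa5 signals were 121.9, 214.6 and 97.1 at 90 days and 620.3, 105.2 and 40.6 at 120 days, which overlap entirely (0.02 ± 0.655, adjusted p = 0.995). Calr, the lectin chaperone calreticulin, differed by 0.03 ± 0.254 (adjusted p = 0.982), and its partner Canx by 0.89 ± 0.341 (adjusted p = 0.232). In the list of 24 ER stress and folding genes, Hsp90b1 was the only called member (4.17%, against 0.368% of all genes called lower), and the median was −0.46. Atf4, the transcription factor of the integrated stress response, gave 1425, 1055 and 1702 at 90 days and 458.1, 768.3 and 383.4 at 120 days, without overlap but also without a call (−1.42 ± 0.378, adjusted p = 0.0655).

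Further genes that fell are given with what each is known to do. Dync1li1, a light intermediate chain of the dynein motor that carries cargo back to the cell body, had the largest fall, 3.64 ± 0.841 (adjusted p = 0.0335). Its signals were 166.2, 110.3 and 197.7 at 90 days and 57.9, 10.7 and 3 at 120 days, lowest on samples 2 and 3 of 120 days. The call was lost without 90 days sample 1 or 3 or 120 days sample 2 or 3. Clta, clathrin light chain A, went from 3617, 6063 and 5492 to 1514, 2293 and 1499 (−1.51 ± 0.32, adjusted p = 0.0202), while a second probe set of low signal gave 0.45. Ehd3, of endosome recycling, fell by 2.09 ± 0.436 (adjusted p = 0.0185) on one probe set and differed by 0.21 on its other. Atp6v1a, the catalytic subunit of the vacuolar proton pump, showed the same split, with −2.10 ± 0.505 (adjusted p = 0.042) on the called set and 0.04 on the other, and its call was lost in each of the 6 leave-one-out fits. Snx17, a sorting nexin, and Eps15l1, an endocytic adaptor, fell by 1.29 and 2.35. Tmem30a, a subunit of the lipid flippases, fell by 1.56, and Alg2, which adds mannose to the precursor of N-glycans, fell by 1.90 with 120-day signals of 125.5, 125.7 and 124.7. The calls of Ehd3 and Alg2 held in 4 of the 6 leave-one-out fits, those of Clta and Eps15l1 in 3, and those of Snx17 and Tmem30a in 2.

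In the transport lists, no kinesin was called among 13 tested, and the median was −0.57, against −0.13 over all genes. Kif5b and Kif5c are heavy chains of conventional kinesin. Kif5b gave 320, 364.6 and 306.4 at 90 days and 114.2, 146.8 and 194.3 at 120 days (−1.15 ± 0.341, adjusted p = 0.108), and Kif5c differed by −1.37 ± 0.527 (adjusted p = 0.229). The lowest unadjusted p of the list was that of Kif21a (−1.31 ± 0.337, adjusted p = 0.0578), whose signals did not overlap. Of 19 dynein and dynactin genes, Dync1li1 fell (5.26%, against 0.368% of all genes), 0 rose and the median was −0.32. The 6 neurofilament and other filament genes had a median of −0.50 with no call. Nefm signals were 750, 1211 and 2681 at 90 days and 2426, 334.7 and 147.5 at 120 days, a spread within each age as wide as the difference between them (−1.45 ± 0.658, adjusted p = 0.329). Nefl differed by −0.07 and Nefh by −0.46, neither called, and the sign of Nefl turned under several alternatives. Map1b, a microtubule protein of growing axons, gave 104.6, 186.1 and 123.1 at 90 days and 20.4, 25 and 13.2 at 120 days, without a call (−2.83 ± 0.746, adjusted p = 0.062). Of 19 motor neuron identity genes, 0 were called, and the median was −0.35. Isl1 differed by 0.02 and Prph by −0.54.

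Transcription factors and regulators among the genes that rose included Klf9, Zmiz2, Zmynd11 and Rnf8. Klf9, a factor induced by glucocorticoids and thyroid hormone, gave 3507, 3611 and 2293 at 90 days and 11297, 13014 and 12644 at 120 days. Arrays of 120 days were tightly grouped, and Klf9 rose by 2.00 ± 0.367, a 4-fold difference (adjusted p = 0.00744), with a call in every leave-one-out fit but that without 90 days sample 3. Its 4 other probe sets, of lower signal, gave −3.30, −0.35, 0.33 and 0.55 and none was called. Mt1, a metallothionein that binds zinc and copper and also answers glucocorticoids, went from 683.4, 595.3 and 721.1 to 1267, 1577 and 2992 (1.45 ± 0.361, adjusted p = 0.048). Its call held in only 1 leave-one-out fit, that without 120 days sample 1. In the list of 14 glucocorticoid-responsive genes, Klf9 and Mt1 rose (14.3%, against 0.527% of all genes), 0 fell and the median was 0.59. The list median was 0.11 with the Gapdh ratio as a covariate. Uncalled members included Cdkn1a, a cell cycle inhibitor, at 1.24 (adjusted p = 0.261), and Sgk1, a kinase, at 1.17 (adjusted p = 0.329). Other uncalled members lay below 0, namely Nfkbia (−0.57), Zbtb16 (−0.37), Dusp1 (−0.31) and Fkbp5 (−0.11), and Tsc22d3 was at 0.16. Among 12 metallothionein and metal handling genes, Mt1 rose (8.33%, against 0.527% of all genes) and the median was 0.82. Mt2 and Mt3 differed by 0.92 and 1.98 without a call, and Fth1, ferritin heavy chain, by 1.31 (adjusted p = 0.104).

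Rnf8, a ubiquitin ligase of the DNA damage response, gave 7.7, 15.1 and 25.1 at 90 days and 178.9, 174.6 and 98.2 at 120 days (3.35 ± 0.712, adjusted p = 0.0205). Zmynd11, a reader of histone marks, rose by 1.96 ± 0.445 (adjusted p = 0.0311), and 120 days sample 1, at 1975, stood far above samples 2 and 3, at 436.5 and 534.2. Zmiz2, a coactivator of nuclear receptors, rose by 2.86 ± 0.685 from signals of 6.6 to 23.7 at 90 days (adjusted p = 0.042). Ewsr1, an RNA-binding protein, rose by 1.43 ± 0.303 (adjusted p = 0.0202) on an _x_at probe set, a design whose probes can match other transcripts. It was the only called gene of 20 tested orthologues of ALS genes (5%, against 0.527% of all genes called higher). Mndal, of an interferon-inducible family, had the largest rise, 4.24 ± 0.84 (adjusted p = 0.013). Its signals at 90 days were 1.6, 12.7 and 1.7, and at 120 days 47.4, 71.5 and 68.2, while the 60-day controls gave 37.2, 34.3 and 59.5. The 90-day arrays were thus the low ones, and the size depends on signals close to the floor of 1. The call of Rnf8 held in 4 of the 6 leave-one-out fits, those of Zmynd11 and Mndal in 3, that of Ewsr1 in 2 and that of Zmiz2 in 1.

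Genes of energy metabolism rose in small number. Cs, citrate synthase, which starts the citric acid cycle, gave 1830, 1530 and 2090 at 90 days and 4009, 4718 and 4604 at 120 days. Both groups were tight, and Cs rose by 1.30 ± 0.311 (adjusted p = 0.042), although its 2 other probe sets gave −0.36 and 0.12. Cox7a2l, a factor that joins respiratory complexes, went from 1154, 1339 and 981.6 to 4342, 3285 and 2424 (1.504 ± 0.346, adjusted p = 0.0332), and both its other probe sets lay above 0. Eno2, the enolase of neurons, gave 565.2, 634.3 and 355.7 at 90 days and 5991, 1196 and 1189 at 120 days (2.02 ± 0.422, adjusted p = 0.0185). Sample 1 of 120 days stood well above the others; without it Eno2 was still called, but it was not called without 90 days sample 1 or 3. Aldoc, the aldolase shared by astrocytes and some neurons, rose by 1.34 ± 0.323 (adjusted p = 0.042). By list, against 0.527% of all genes, 2 of 15 glycolysis genes rose (13.3%), 1 of 36 genes of complexes III, IV and ATP synthase (2.78%), 1 of 20 of the citric acid cycle (5%) and 0 of 33 of complex I, and 0 fell in any of these. Their medians were 0.31, 0.29, −0.12 and 0.19. Of 41 cytosolic ribosomal protein genes, 1 rose (2.44%, against 0.527% of all genes), 32 lay above 0 and the median was 0.46. That gene was Rps10, with signals of 576, 493.9 and 424.2 at 90 days and 756.5, 1429 and 2232 at 120 days (1.44 ± 0.306, adjusted p = 0.0205), and all 5 of its probe sets lay above 0. Of the 6 leave-one-out fits, the call of Rps10 held in 3, those of Cox7a2l and Aldoc in 2 and that of Cs in 1.

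Other genes that rose encode carriers, enzymes and receptor partners of different kinds. Gltp, which carries glycolipids, went from 157.2, 327.5 and 41.3 to 500.4, 1070 and 1110 (2.71 ± 0.493, adjusted p = 0.00744) and lost its call only without 90 days sample 3. Pltp, a phospholipid transfer protein, went from 600.5, 528.6 and 943.9 to 1678, 2431 and 5651 (2.09 ± 0.423, adjusted p = 0.0144). Its 60-day signals, 2408, 1798 and 2969, lay above all 90-day arrays. Slc25a28, which brings iron into mitochondria, and Alad, an enzyme of heme synthesis, rose by 2.86 and 2.63, with calls in 4 and 2 of the 6 leave-one-out fits. Agt, angiotensinogen, which astrocytes make in the nervous system, rose by 2.90 ± 0.644 (adjusted p = 0.0274) from 26.5, 8.8 and 17.4 to 95.8, 101.6 and 172.3. Phgdh, which starts the synthesis of serine, gave 238.2, 520.7 and 411.8 and then 569.5, 2201 and 5698 (2.38 ± 0.527, adjusted p = 0.0269). Its 120-day arrays spread widely, and of its 4 _x_at probe sets 2 were called and the others gave −0.32 and −0.02. The calls of Agt and Phgdh held in 2 of the 6 leave-one-out fits, and that of Pltp in 4. Ramp1, a partner of the receptor for the peptide CGRP, and Clstn1, calsyntenin, which links cargo to kinesin, rose by 1.69 and 1.15; the Ramp1 call held in 2 of the 6 leave-one-out fits, and the Clstn1 call was lost in each of the 6 leave-one-out fits.

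Bcl2l11, the pro-apoptotic protein BIM, gave 94.4, 223.1 and 203 at 90 days and 37.1, 69.1 and 47 at 120 days (−1.72 ± 0.423, adjusted p = 0.0458), while its other probe sets gave −1.42 and 0.05. It was the only called gene of 23 BCL2 family, caspase and p53 target genes (4.35%, against 0.368% of all genes called lower), and its call held in 1 of the 6 leave-one-out fits. Mest, an imprinted gene, fell by 2.01 ± 0.393 (adjusted p = 0.0116), from 401.8, 339.2 and 591.4 to 108.2, 130.4 and 87. Ndfip1, an adaptor of NEDD4 ubiquitin ligases, fell by 1.54 ± 0.354 (adjusted p = 0.0329), from 3613, 3653 and 6612 to 1775, 1816 and 1099. Fgf18, a growth factor, and Crhr1, the receptor of corticotropin-releasing hormone, fell by 2.07 and 2.16 at adjusted p of 0.0451 and 0.0485. The Fgf18 call was lost in each of the 6 leave-one-out fits, and the Crhr1 call held in 1. Cnbp, a nucleic acid-binding protein, fell by 1.25 (adjusted p = 0.048), a call that held in 1 of these fits, against 4 for Mest and 2 for Ndfip1. Many of the largest falls ended at low signals. Hoxd9, a homeobox gene of the lumbar cord, gave 160.4, 66 and 105.1 at 90 days and 57.8, 3.1 and 6.9 at 120 days (−3.27 ± 0.766, adjusted p = 0.0364), with a call in 2 of the 6 leave-one-out fits. Signals of all 3 arrays of 120 days lay under 16 in 4 of the genes that fell, and those of 90 days in 2 of the genes that rose. Some names are best known from other tissues, such as Prm1, the protamine of sperm, with 70.3, 79.1 and 64.1 at 90 days and 7.3, 31.1 and 9.2 at 120 days, called in 1 of those fits.

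Some markers of cells that surround motor neurons were among the called genes, while most of the marker lists were not called. Tyrobp and Csf1r are microglial, an adaptor of activating receptors and the receptor on which microglia depend. Csf1r gave 634.8, 1233 and 772.7 at 90 days and 2375, 2485 and 4620 at 120 days. Its groups did not overlap, and Csf1r rose by 1.83 ± 0.403 (adjusted p = 0.0253); a second probe set gave 1.85 (adjusted p = 0.0578). Tyrobp went from 53.8, 15.9 and 23.1 to 97.5, 152.4 and 353.3 (2.68 ± 0.583, adjusted p = 0.0228). C1qa, a complement gene of microglia, fell from 86.5, 100.7 and 130.4 to 28.4, 16.4 and 34.7 (−2.05 ± 0.476, adjusted p = 0.0348). The related C1qb and C1qc lay the other way without a call, at 1.75 (adjusted p = 0.405) and 1.44 (adjusted p = 0.409). A brighter _x_at probe set of C1qb gave 262.2, 235.4 and 228.5 at 90 days and 426.7, 860.5 and 1248.8 at 120 days, without overlap. Over 19 microglial and macrophage genes, 2 rose (10.5%, against 0.527% of all genes), 1 fell (5.26%, against 0.368%) and the median was −0.15. Aif1, a defining microglial marker, lay above the array's median on 0 of 6 arrays. Each of these 3 calls was lost in some leave-one-out fits, and without 90 days sample 3 all were lost.

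Astrocyte genes that rose were Ndrg2 and Aldoc, 2 of 18 (11.1%, against 0.527% of all genes), with 0 lower and a median of 0.36. Ndrg2, a stress-related protein of astrocytes, gave 28.2, 164.4 and 104.6 at 90 days and 1477, 278.5 and 247 at 120 days, so its rise of 2.57 ± 0.586 (adjusted p = 0.0319) leans on 120 days sample 1. It was not called without that array, or without 90 days sample 1 or 3. Gfap differed by 1.09 (adjusted p = 0.41). Of 17 oligodendrocyte and myelin genes 0 were called, 14 lay above 0 and the median was 0.75. Mbp, myelin basic protein, gave 5730, 5656 and 3113 at 90 days and 9967, 12751 and 18709 at 120 days on the probe set that represents it (1.52 ± 0.381, adjusted p = 0.0511), and 2 of its _x_at probe sets were called higher, by 2.10 and 2.47. Sox10, the lineage factor of oligodendrocytes, differed by 2.75 ± 0.697 (adjusted p = 0.054). Pdgfrb, the receptor of pericytes, rose by 2.71 ± 0.559 (adjusted p = 0.0173), from 39.4, 91.4 and 34.7 to 101.5, 422.6 and 810.6. It was the only gene called of 18 endothelial and pericyte genes (5.56%, against 0.527% of all genes), whose median was 0.58, while Pecam1 lay above the median of its array on 0 of 6. Slc6a13, a GABA transporter of the meninges, gave 12.7, 8.3 and 14.4 at 90 days and 73.6, 162.1 and 209.3 at 120 days (3.56 ± 0.74, adjusted p = 0.0178). It was the only called gene of 13 Schwann, fibroblast and meningeal genes (7.69%, against 0.527% of all genes), of which 7 lay below 0, among them the matrix genes Lum, at −1.72, and Dcn, at −0.96, and the median was −0.06. The calls of Pdgfrb and Slc6a13 each held in 2 of the 6 leave-one-out fits. In the list of 14 interneuron genes 0 were called, 6 were higher at an unadjusted p under 0.05 (42.9%, against 5.7% of all genes) and the median was 0.91. Among these 6 were the neuropeptide genes Npy, at 2.41 (adjusted p = 0.105), and Penk, at 1.75 (adjusted p = 0.134), and Gad1, which makes GABA, at 2.06 (adjusted p = 0.191). The list did not move as one. Gad2, at −0.87 (adjusted p = 0.396), and Slc6a5, at −0.98 (adjusted p = 0.554), lay lower at 120 days, without overlap between the ages.

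The summed signal of a marker list weights its members by their signal, unlike the median. For oligodendrocyte genes it ran from 4839 to 10890 at 90 days and from 16420 to 25120 at 120 days. For microglial genes it ran from 1754 to 2619 and from 3980 to 6591, and for astrocyte genes from 4483 to 7101 and from 7255 to 10260. In these 3 lists the ages did not overlap, but few abundant genes carried each sum. Without Mbp the oligodendrocyte sums were 1725 to 5236 at 90 days and 3670 to 7931 at 120 days. Without Aldoc the astrocyte sums were 3151 to 5028 and 4032 to 6106, so that both of these lists overlapped. Without Csf1r alone the microglial sums still did not overlap, at 1079 to 1387 and 1495 to 1971. They overlapped once Ctss was left out as well, at 769.7 to 819.2 and 477 to 1434. The interneuron sums, 1181 to 2112 and 1850 to 3021, overlapped, as did the motor neuron identity sums, 3814 to 5652 and 2555 to 4281, and the endothelial sums, 3154 to 3526 and 3229 to 5715. Without its most abundant gene, Slc2a1, the endothelial sum was 1718 to 1980 and 2334 to 3098, without overlap. The sum over all genes did not overlap either, at 1945000 to 2116000 at 90 days and 2143000 to 2353000 at 120 days. Lists of other kinds also lay apart. Glycolysis sums were 15560 to 16910 and 27180 to 28860, and those of glucocorticoid-responsive genes 5408 to 7014 and 15770 to 18620. Lack of overlap was thus not particular to the marker lists. With the Gapdh ratio as a covariate, the list medians became −0.13 for oligodendrocytes, −0.20 for astrocytes and −0.40 for interneurons. With the hybridization-control level they became 1.30, 1.05 and 1.92. The part of neighbouring cells and of RNA quality in the calls was not tested.

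**Figure D4:**
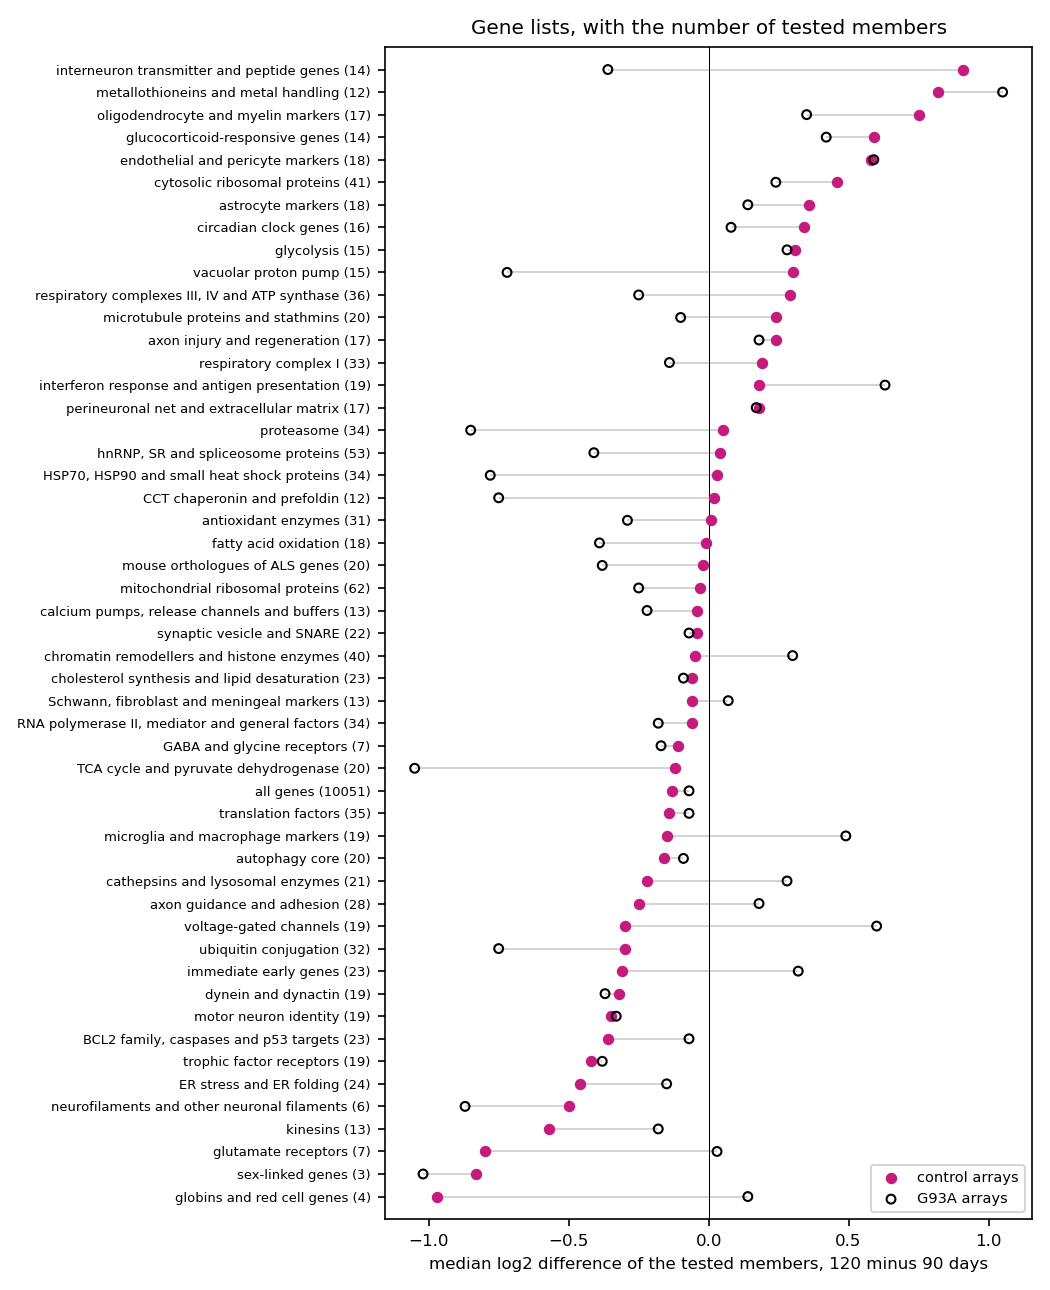
For each gene list, with its number of tested members, the filled point gives the median log2 difference, 120 minus 90 days, in controls and the open point that in G93A mice. In controls the interneuron (0.91), metallothionein (0.82) and oligodendrocyte (0.75) lists lie highest, and the point for all genes lies at −0.13.

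The same ages were also sampled in G93A mice, on arrays not shared with the controls. Both comparisons came from one fit and shared its estimate of spread for each gene, so calls in both are not independent. There, 289 genes were higher (2.88%) and 475 lower (4.73%) at 120 days, or 554 probe sets (3.34%) and 713 (4.3%). Of the 53 genes that rose in controls, 33 (62.3%) were also called higher in G93A mice, 52 lay above 0 and 0 were called lower, with a median of 1.43 against 2.02 in controls. Of the 37 that fell, 14 (37.8%) were also called lower and 35 lay below 0, with a median of −0.96 against −2.07. The control medians were fixed by the choice of these genes, so the sizes cannot be compared as such. Over all 10051 genes the differences of the controls and of the G93A mice correlated with r = 0.288 and rho = 0.28, across genes that are not independent replicates.

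Several called genes had like values in both. Ncdn differed by 2.08 in controls and 2.53 in G93A mice, Klf9 by 2.00 and 2.46, Capn15 by 2.20 and 2.32, and Clta by −1.51 and −1.52. Others lay apart. Mt1 differed by 1.45 in controls and 3.34 in G93A mice, where its 120-day signals were 9723, 11202 and 5528 (interaction, unadjusted p = 0.0011). C1qa differed by −2.05 in controls and 0.49 in G93A mice (unadjusted p = 0.000925), and Rnf8 by 3.35 and 0.10 (unadjusted p = 0.00355). Cox7a2l differed by 1.504 and −0.06 (unadjusted p = 0.00389), Eno2 by 2.02 and 0.21 (unadjusted p = 0.00572), and Ndrg2 by 2.57 and 0.01 (unadjusted p = 0.00498). For none of the 16565 probe sets did the test of that difference, an interaction in the same limma fit, pass the threshold: 0 were called, the lowest adjusted p was 0.279, and 1661 (10%) had an unadjusted p under 0.05. A change of controls alone was therefore not shown for any gene. The medians of lists also lay apart in places, untested: the proteasome genes had a median of 0.05 in controls and −0.85 in G93A mice, HSP70, HSP90 and small heat shock proteins 0.03 and −0.78, the citric acid cycle −0.12 and −1.05, and the interneuron list 0.91 and −0.36.

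**Figure D5:**
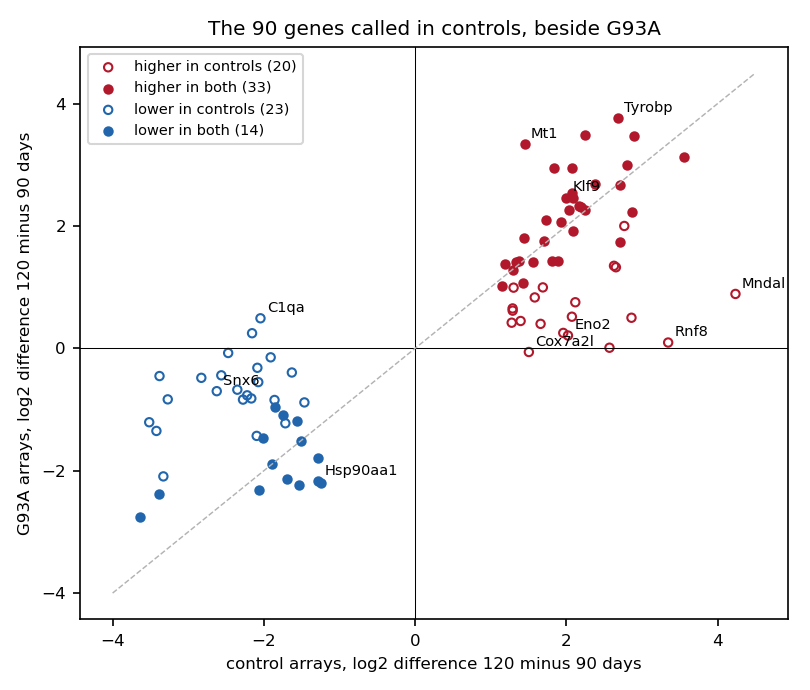
The 90 genes called in controls, with the log2 difference, 120 minus 90 days, in controls (horizontal) and in G93A mice (vertical) and a dashed line of equal values. Filled points are the 33 genes called higher and the 14 called lower in both, and open points those called in controls alone, a distinction that the interaction test did not bear out for any of them.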

How the data were processed

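The files hold signal intensity per probe set for 18 arrays, made by the authors with MAS5, per the submitters' processing notes. The sources used here do not give its settings; each array was checked to have a mean of about 100 after 2% of values were trimmed at each end. Log2 was taken of the deposited intensities, with a floor of 1 (965 of 408420 values, 0.236%). Genes are named from probe sets with 1 symbol in the platform annotation (20380 of 22690; 691 had several and 1555 none, and 64 were controls). The test covered probe sets brighter than the median of the array on 3 or more of 18 arrays. Group means were fitted with limma 3.58.1 in R 4.3.3 over all 18 arrays, with a variance trend and 12 residual degrees of freedom, and p-values were adjusted by Benjamini-Hochberg over 16565 probe sets, called under 0.05. The script was tested on simulated data. Outside the check of defining markers, each gene is represented by the brightest of its tested probe sets, _x_at only where there was no other (149 genes). The 6 arrays limit the precision (median SE 0.69, log2).

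The ages compared and the gene lists were chosen with earlier results of these data known. Genes named are up to 15 per direction with the largest difference among called genes without overlap, up to 4 per list by unadjusted p, and a set of markers; the other genes named were chosen after their values were seen. Lists have no test here. Promoters are from RefSeq on GRCm38.p6, and both genes matched.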

Additional observations from a re-analysis of the deposited data

How the results depend on the processing

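Among 20 alternatives, the sign of the 90 called genes turned in 0. These genes were chosen by an adjusted p under 0.05, and the ages overlapped in none of them, which largely fixes the sign. Of 173 called probe sets, the count became 101 with quantile normalization, 264 with each array centred on its median, 47 with the 9 control arrays, 26 with the Gapdh ratio as a covariate and 0 with the 6 arrays alone or without a variance trend. Without _x_at probe sets, an alternative chosen after seeing the data, it was 66. Leaving out single arrays gave 29 to 299. Of the 90 genes, 16 kept their call without 90 days sample 3, 27 without sample 1 and 62 without sample 2; 72, 41 and 30 did so without 120 days samples 1, 2 and 3. With the replicate number as a block, 140 were called. Deviations of samples of equal number correlated with r = −0.019, −0.097 and 0.011, and those of unequal number with −0.117 to 0.154. So few pairs cannot decide whether samples of equal number were processed together. The interaction gave 0 calls. Of 58 uncalled genes followed, 5 turned sign: Nefl (0.18 centred, 0.27 with array weights, 0.76 with the Gapdh ratio, −0.54 to 0.17 on leaving out single arrays), Fos (−0.17 with array weights, −0.30 with the Gapdh ratio, −0.34 to 0.22), Isl1 (−0.17 with the hybridization-control level, −0.30 to 0.20), Nos1 (−0.10) and Pecam1 (0.97, both with the Gapdh ratio, and 0 for Pecam1 with signals under 16 set to 16). Of 1000 list medians, 94 moved by more than the spread.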

Other observations

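Where the 60-day controls lay was not used to choose the called genes. Their mean log2 signal was nearer to that of 90 days than to that of 120 days in 38 of the 53 genes that rose and in 33 of the 37 that fell. The share over all tested genes is not given, so these counts have no background. The mean log2 Gapdh ratio was also nearer to that of 90 days, at 3.36, 3.25 and 4.48 for 60, 90 and 120 days. The hybridization-control level was nearer to that of 120 days, at 11.15, 9.83 and 11.64. The part of either in these counts was not tested. The median log2 signals at 60, 90 and 120 days were 7.98, 7.76 and 9.58 for the genes that rose and 7.61, 7.68 and 5.63 for those that fell. Hsp90aa1 was among the exceptions: its 60-day signals were 1592, 1705 and 953.2, against 4008, 3621 and 3537 at 90 days and 2027, 1212 and 1449 at 120 days.

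Proteasome genes gave 8 of 34 lower at an unadjusted p under 0.05 (23.5%, against 7.02% of all genes) and 0 higher, with 0 called and a median of 0.05. Synaptic vesicle and SNARE genes had 4 of 22 higher at that level (18.2%, against 5.7% of all genes). Among them were Syn1, a protein that tethers vesicles (1.25, adjusted p = 0.112), and Rab3a, a GTPase of vesicle release (2.10, adjusted p = 0.174). Other members went the other way: Syt4 was lower at that level (−0.74, adjusted p = 0.282), and Cplx2 differed by −1.75 (adjusted p = 0.389). The list median ran from −0.20 to 0.21 over 20 alternatives and lay below 0 in 14 of them. Gria3, an AMPA receptor subunit, gave 770.7, 668.2 and 392.7 at 90 days and 142.4, 444.4 and 257 at 120 days (−1.21, adjusted p = 0.146), within a list of 7 glutamate receptors with a median of −0.80.

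Calls were spread unevenly over probe set designs. Of 1260 tested _x_at probe sets, 49 were called higher (3.89%) and 11 lower (0.873%), while of 11226 plain _at probe sets 19 were higher (0.169%) and 32 lower (0.285%). The median differences were 0.12 and −0.21, and the median log2 levels 7.59 and 5.81. In 340 of 630 genes with both (54%), the _x_at mean lay above that of the gene's other probe sets, with a median gap of 0.1. Laptm5, a lysosomal protein of immune cells, shows the split: its _x_at set was called higher by 2.44 (adjusted p = 0.00406), and its other sets gave 0.30 and −0.29. The 18S ribosomal RNA probe sets, mean log2 9.65 at 90 days and 8.09 at 120 days (exact permutation p = 0.1), did not overlap between the ages.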
